A study of Mus musculus with 20 samples.

Results

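The Zfp genes are mouse genes named Zfp and a number, and nearly all are named for the zinc fingers in their proteins. Here they were every gene of that name whose ribosome footprints averaged at least 10 CPM (the count scaled to the raw library total) over 12 libraries digested with micrococcal nuclease (MNase), without Zfp42 and Zfp281. This left 173 of 365 genes with such a name, among 22416 gene names in the count table. Just inside the threshold were Zfp426 at 10.1, Zfp703 at 10.1 and Zfp523 at 10.2 CPM, and just outside were Zfp706 at 9.97, Zfp185 at 9.78 and Zfp563 at 9.70 CPM. The genes were chosen by this measured level, so levels are given below as a description. The choice used the mean over all 4 groups and no difference between groups. A gene low in some groups could still pass through the groups where it was high.

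The study profiled ribosomes in mouse embryonic stem cells with the eIF2αA/A genotype (KI) or the eIF2α+/+ genotype (WT). Each genotype was kept for 6 days in serum-free medium with leukemia inhibitory factor (LIF, 1000 U/mL), either together with the inhibitors PD0325901 and CHIR99021 (LIF/2i) or with LIF and no inhibitors (LIF). KI is the substitution of the eIF2α residue whose phosphorylation lowers general translation initiation under stress, so that it cannot be phosphorylated. The inhibitors act on MEK and GSK3. Footprints were made with MNase in 3 libraries per group and with RNase I in 2 libraries per group. The labels do not say how many clones each genotype came from, whether replicates were separate cultures, or whether both digests used the same lysates, so p-values measure the spread between libraries as labelled. No RNA-seq was used here, so RNA level and translation cannot be told apart, nor, in bulk samples, can fewer cells of a type and less RNA per cell.

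MNase library totals were 2127850 to 5461210 counts in WT and 6560173 to 8894080 in KI, so every KI library was deeper than every WT library, and counts after thinning all libraries to 1 total are given beside the results. RNase I totals ran from 1965050 to 22916734. The 8 stem cell markers, which include Pou5f1 and Nanog, summed to 4968 to 5454 CPM in WT in LIF/2i, 3440 to 4530 in WT in LIF, 4408 to 4775 in KI in LIF/2i and 2852 to 3138 in KI in LIF, with none at 0. The summed level in KI was below that in WT in both media. By single marker, 1 of the 8 was higher and 1 lower in KI in LIF/2i, with a median log2 of -0.06. In LIF, 0 were higher and 3 lower in KI, with a median of -0.42. From LIF/2i to LIF, 4 of the 8 fell in WT and 6 in KI. The 7 markers of 2-cell-like cells summed to at most 8.86 CPM. The deviations of KI replicate 1 from its group mean in LIF/2i and in LIF had a correlation of 0.563 across genes, which are not independent replicates. It was the lowest of the KI libraries for 49 of the 60 Zfp genes that rose in LIF/2i. Counts of called genes are also given without it, while fold changes of single genes include it.

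A C2H2 zinc finger folds around a zinc ion held by a pair of cysteines and a pair of histidines, and arrays of such fingers read DNA sequence. Many Zfp genes encode KRAB zinc finger proteins, whose KRAB domain recruits the corepressor TRIM28 and through it histone methylation to retroelements and imprinted regions. KRAB zinc finger genes have multiplied by local duplication and often lie in clusters of close copies. Other Zfp genes have unrelated roles in RNA binding, ribosome quality control or chromatin.

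Of the 173 genes, 142 had at least 1 promoter window in the RefSeq table (GRCm38.p6), 183 windows in all, each 250 bases before to 50 bases after a start. The windows of 2 pairs of neighbouring genes are shown because both members of each pair had more footprints in KI in both media, with CG dinucleotides in capitals and the strand after the coordinates. The first pair is Zfp719 (chr7:43579336-43579635, + strand) and Zfp819 (chr7:43606919-43607218, + strand), and the second is Zfp101 (chr17:33394588-33394887, - strand) and Zfp81 (chr17:33358829-33359128, - strand).
Zfp719: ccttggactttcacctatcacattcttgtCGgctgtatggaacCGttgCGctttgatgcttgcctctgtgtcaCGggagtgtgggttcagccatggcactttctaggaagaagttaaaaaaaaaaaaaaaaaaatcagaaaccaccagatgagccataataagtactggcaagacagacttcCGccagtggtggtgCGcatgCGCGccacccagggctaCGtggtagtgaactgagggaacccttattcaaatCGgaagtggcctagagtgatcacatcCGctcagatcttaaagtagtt
Zfp819: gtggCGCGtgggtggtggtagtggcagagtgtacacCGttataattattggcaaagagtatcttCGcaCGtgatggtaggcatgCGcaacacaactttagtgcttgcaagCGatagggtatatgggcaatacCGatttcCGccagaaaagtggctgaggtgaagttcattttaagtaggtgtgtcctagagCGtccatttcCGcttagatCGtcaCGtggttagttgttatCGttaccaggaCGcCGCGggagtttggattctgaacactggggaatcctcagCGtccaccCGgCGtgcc
Zfp101: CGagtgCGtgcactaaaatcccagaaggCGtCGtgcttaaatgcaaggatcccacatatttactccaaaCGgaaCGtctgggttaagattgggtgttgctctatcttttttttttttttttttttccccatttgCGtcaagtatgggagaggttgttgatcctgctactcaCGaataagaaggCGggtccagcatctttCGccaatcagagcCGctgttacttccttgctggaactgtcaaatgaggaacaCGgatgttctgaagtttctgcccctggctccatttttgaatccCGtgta
Zfp81: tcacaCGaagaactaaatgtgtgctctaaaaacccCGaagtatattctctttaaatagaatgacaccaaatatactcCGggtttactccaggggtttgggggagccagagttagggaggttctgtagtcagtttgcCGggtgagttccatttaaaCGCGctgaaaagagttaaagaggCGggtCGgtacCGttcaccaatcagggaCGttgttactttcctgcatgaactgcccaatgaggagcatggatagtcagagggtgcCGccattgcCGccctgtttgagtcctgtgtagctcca
The window of Zfp719 held 11 CG dinucleotides, that of Zfp819 20, that of Zfp101 13 and that of Zfp81 12. Over all 183 windows of the Zfp genes the median was 16 CG dinucleotides, against 7 over 32851 windows of all genes. The ETS core CCGGAAG, searched on both strands, was in 22.4% of the Zfp windows and 8.86% of all windows. The GC box GGGCGG was in 51.9% against 35.7%. A TATAAA was in 8.2% against 13.6%. The letters TGATGCAA, one form of the amino acid response element bound by ATF4, were in 0 of 183 Zfp windows and in 0.895% of all windows. At so low a share over all genes, 0 of 183 windows tells little. Of the other letters searched, the CRE TGACGTCA was in 4.92% against 1.79%, the NRF1 core in 4.37% against 0.971% and the YY1 core in 8.2% against 2.75%. The TCF/LEF site was in 9.29% against 3.73%, the ZNF143 core in 6.01% against 3.24% and the E-box CACGTG in 4.92% against 7.15%. The windows of all genes include genes at any level in these cells. Windows of genes at 10 CPM or more were not compared, so the part of the level threshold in these differences was not tested. A match or its absence describes these letters in these windows.

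Levels spanned 10.1 to 649 CPM with a median of 23.5 CPM. CPM is a share of footprints that grows with coding length, so it gives no order of translation per length between genes. The largest shares of footprints were those of Zfp207, a spindle assembly factor, at 649 CPM, Zfp57 at 459, Zfp106 at 443, Zfp462 at 365 and Zfp638 at 296 CPM, and these 5 held 25.5% of the summed CPM of the 173 genes. In all, 18 genes were at 100 CPM or more. At the threshold of 10 CPM, 127 genes had a group mean at or above it in all 4 groups, 27 in 3, 16 in 2 and 3 in 1 group. Genes below it in some group passed through the groups where they were higher. Their differences between groups are therefore not independent of the choice. Zfp41, Zfp423, Zfp105 and Zfp941 are among them. Zfp719, Zfp819, Zfp81 and Zfp850, described below, also had most libraries of a WT group under 10 CPM. The same limit is kept for their differences between KI and WT. The Zfp genes together took 0.828% ± 0.025 (SD, n = 3) of MNase counts in WT in LIF/2i, 0.829% ± 0.016 in WT in LIF, 0.904% ± 0.089 in KI in LIF/2i and 0.910% ± 0.074 in KI in LIF. KI libraries in LIF/2i ran from 0.804% to 0.976%, which overlaps the WT range of 0.801% to 0.850%. In the RNase I libraries the share was 0.716% and 0.707% in WT, in LIF/2i and LIF, and 0.714% and 0.756% in KI (n = 2 each).

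**Figure D1:**
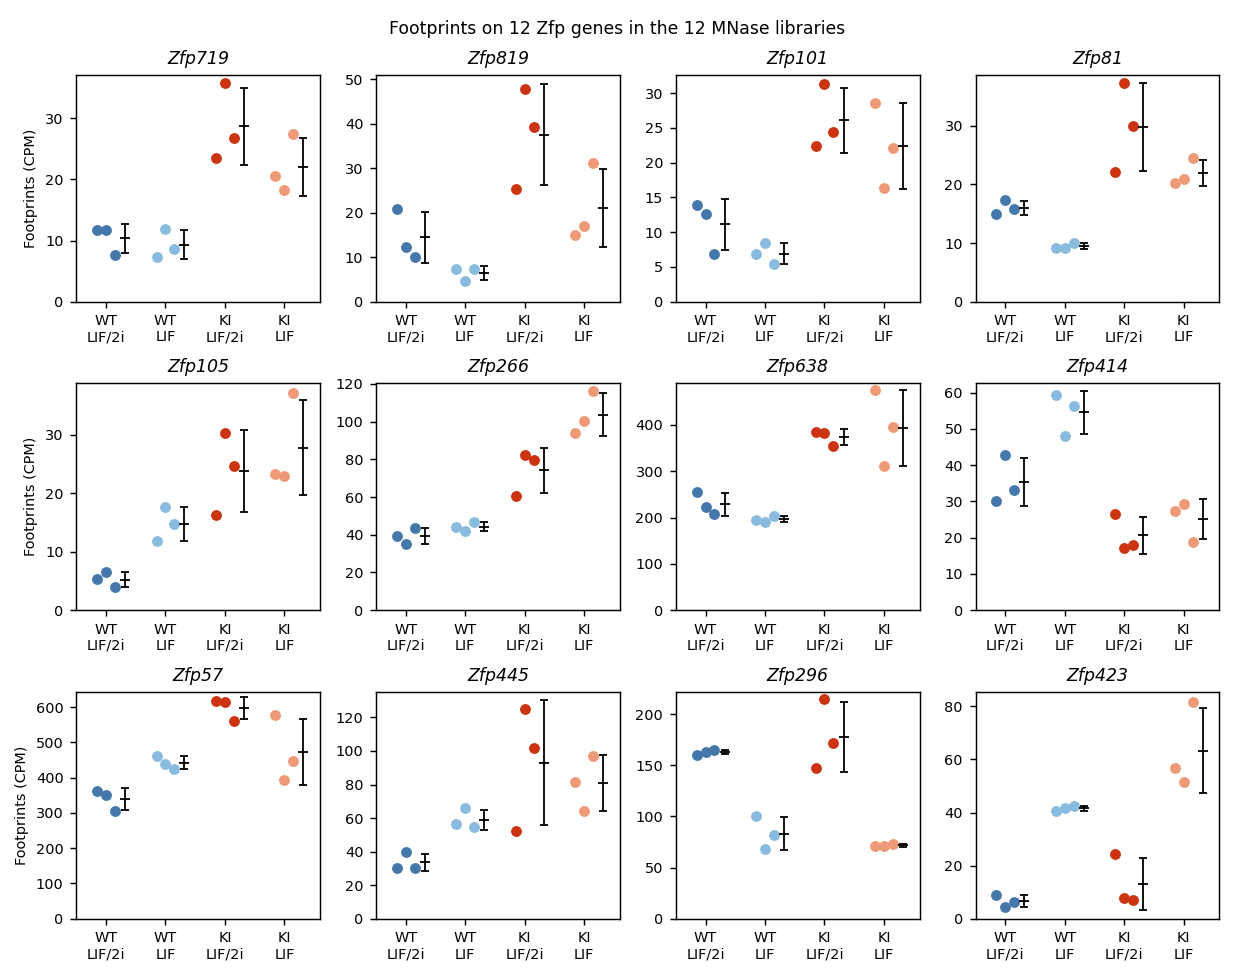
Footprints (CPM, scaled by TMM-adjusted library totals) on 12 Zfp genes in the 12 MNase libraries, with 3 points per group and a black bar for the mean and SD (n = 3). The y axes start at 0 and differ between panels. Zfp719, Zfp819, Zfp101, Zfp81, Zfp266 and Zfp638 had all KI libraries above all WT libraries of the same medium, and Zfp414 had them all below.

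The group means of a single gene moved moderately. The highest of the 4 group means was 1.84 times the lowest for the median gene, 2 times or more for 78 genes and under 1.5 times for 47 genes. The largest ratio was that of Zfp423, at 9.67, and the smallest that of Zfp384, at 1.08. The group with the highest mean was KI in LIF/2i for 75 genes, KI in LIF for 44, WT in LIF/2i for 34 and WT in LIF for 20. WT in LIF was the lowest group for 79 genes.

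In LIF/2i, 60 of the 173 Zfp genes had more MNase footprints in KI than in WT and 14 had fewer (edgeR's quasi-likelihood test, Benjamini-Hochberg adjusted p under 0.05). Over all 12806 genes tested the test called 13.8% higher and 11.5% lower, and over the 9070 genes at 10 CPM or more it called 17.3% higher and 11.4% lower. The Zfp genes stood at 34.7% and 8.09%. Their median log2 fold change was 0.32 against 0.04 for genes at 10 CPM or more, and 117 of 173 were above 0. For 73 genes (42.2%) all KI libraries exceeded all WT libraries, where 21.2% of all genes tested did so, and for 21 genes (12.1%) all were lower, against 18.5%. The genes that rose included Zfp105, Zfp850, Zfp719, Zfp819, Zfp101, Zfp26, Zfp644 and the imprint regulators Zfp57 and Zfp445.

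**Figure D2:**
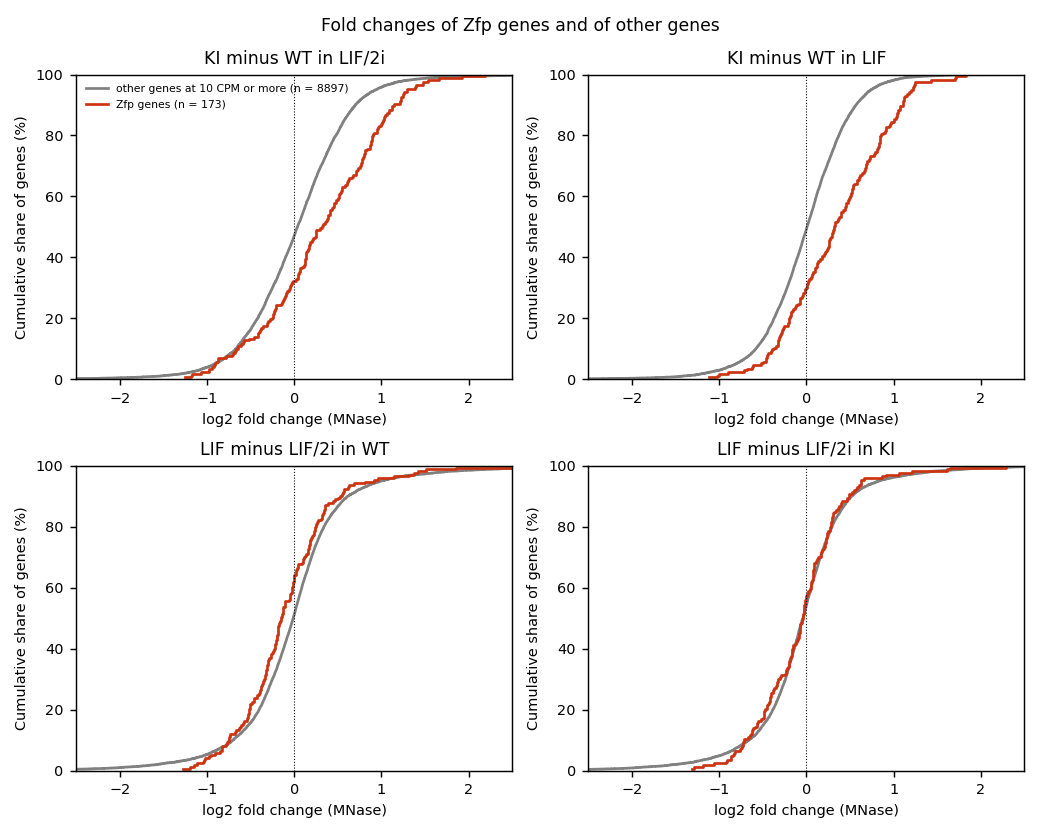
Cumulative share of genes (%) by log2 fold change in the MNase libraries, for the 173 Zfp genes (red) and the 8897 other tested genes at 10 CPM or more (grey), in 4 comparisons. The red curve lies to the right of the grey one over most of its range in both comparisons of KI with WT, with medians of 0.32, and slightly to its left in the comparison of media in WT, with a median of -0.15.

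The RNase I libraries of the same medium centred near 0. All 173 genes were tested there, 0 were called in either direction by edgeR, 9 (5.2%, against 12.8% of all genes tested) had an unadjusted p under 0.05, and the median log2 fold change was -0.03 with 72 of 173 above 0. That fit called 0.116% of all genes tested higher and 0.116% lower. Of the 60 genes higher in KI with MNase, 28 were above 0 with RNase I, while all 14 lower genes were below 0. Fitted over all 20 libraries, the effect of KI in LIF/2i was larger with MNase than with RNase I for 1 Zfp gene, Zfp26, by 1.42 (SE 0.29, adjusted p = 0.0381, edgeR), and smaller for 0. The same test called 0.391% of all genes tested with a larger effect with MNase and 0.092% with a smaller one. Without adjustment, 53 Zfp genes (30.6%) had p under 0.05 with the larger effect in MNase and 5 (2.89%) with the smaller, against 11.5% and 5.46% of genes at 10 CPM or more. The median difference was 0.35, against 0.03 for those genes.

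**Figure D3:**
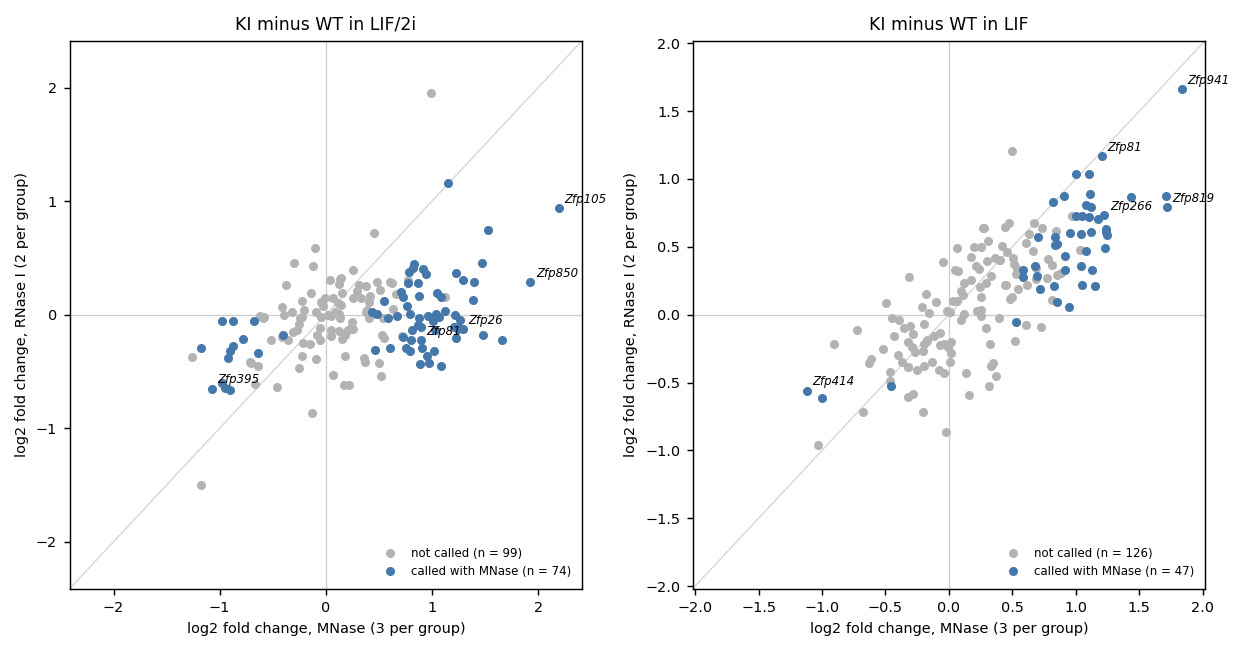
Log2 fold change of KI over WT for the 173 Zfp genes with MNase (x axis, 3 libraries per group) against RNase I (y axis, 2 per group), in LIF/2i (left) and LIF (right), with genes called with MNase in blue and the diagonal in grey. In LIF/2i the blue points on the right lie on both sides of 0 on the RNase I axis (28 of 60 above), and in LIF 43 of 44 lie above.

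Across the 173 genes, the log2 fold changes of the 2 digests had r = 0.417 in LIF/2i and 0.778 in LIF, a description in which genes share libraries and depth. The MNase call count in LIF/2i also depended on single libraries. Without KI replicate 2 the fit called 28 genes higher, without WT replicate 3 it called 38, and with KI replicate 1 left out in both media it called 74 higher and 20 lower. For 49 of the 60 genes that rose, KI replicate 1 was the lowest of the 3 KI libraries in LIF/2i, and for 48 KI replicate 2 was the highest. With all MNase and RNase I libraries in 1 fit, 30 were higher and 20 lower. With every MNase library thinned to 2127850 counts, 44 were higher and 13 lower.

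Zfp105 had the largest rise. Its MNase footprints in LIF/2i were 5.32, 6.46 and 3.93 CPM in the WT libraries, against 16.3, 30.3 and 24.7 CPM in those of KI, a log2 fold change of 2.19 (SE 0.32, adjusted p = 0.000771, edgeR). The groups did not overlap, and each KI library exceeded the highest WT library. With RNase I the values were 4.21 and 7.97 CPM in the WT libraries, against 6.20 and 17.7 CPM in those of KI, which overlap, and the log2 fold change was 0.94 (SE 0.50, adjusted p = 0.475).

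Zfp850 was at 10.6, 9.68 and 6.88 CPM in the WT libraries, against 23.4, 44.0 and 35.1 CPM in those of KI in LIF/2i (log2 1.93, SE 0.30). Zfp26 was at 51.1, 55.5 and 51.9 CPM in the WT libraries, against 97.4, 151 and 139 CPM in those of KI (log2 1.29, SE 0.18, adjusted p = 0.000629). The groups were apart for both genes, and replicate 1 was the lowest KI library for both. With RNase I, Zfp26 was at 80.8 and 81.5 CPM in the WT libraries, against 60.4 and 89.0 CPM in those of KI, so the KI libraries lay on both sides of WT. Among the other large rises, Zfp936 changed by 1.66 (SE 0.33) and Zfp948 by 1.53 (SE 0.34) on the log2 scale, and with RNase I their values were -0.22 and 0.74.

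The 14 genes that fell in LIF/2i included Zfp516, a factor known from brown fat, Zfp395, Zfp691, Zfp746, Zfp236, Zfp367, Zfp688 and Zfp335, with log2 fold changes of -1.17 to -0.87. The call of Zfp746 was lost in 11 of 21 other settings. Zfp395 was at 57.8, 39.0 and 36.4 CPM in the WT libraries, against 19.7, 19.2 and 24.1 CPM in those of KI (log2 -1.07, SE 0.23, adjusted p = 0.0064, edgeR). Zfp335 was at 86.5, 74.2 and 77.0 CPM in the WT libraries, against 40.9, 42.5 and 46.2 CPM in those of KI (log2 -0.87, SE 0.15, adjusted p = 0.00183). WT exceeded KI in every library for both. Zfp335, Zfp367 and Zfp395 also fell from LIF/2i to LIF in WT, a comparison that shares the WT LIF/2i libraries.

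In LIF, 44 Zfp genes had more MNase footprints in KI and 3 had fewer, 25.4% and 1.73% of the 173 genes. Over all genes tested the shares were 7.36% and 6.05%, and over genes at 10 CPM or more 9.5% and 6.68%. The median log2 fold change was 0.32 against 0.01 for genes at 10 CPM or more, with 121 of 173 above 0. KI libraries lay above all WT libraries for 70 genes (40.5%, against 18% of all genes tested) and below for 15 (8.67%, against 17.5%). Zfp941, Zfp819, Zfp101, Zfp266 and Zfp638 were among the genes that rose.

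In this medium the RNase I libraries leaned the same way. Their median log2 fold change was 0.21 with 111 of 173 genes above 0, and 43 of the 44 genes higher with MNase and all 3 lower genes had the same sign. None of the 173 passed the adjusted threshold with RNase I (0 higher and 0 lower by edgeR, 17, or 9.83%, with an unadjusted p under 0.05 against 13.3% of all genes tested), where that fit called 0% of all genes higher and 0.116% lower. The test of a difference between digests called 0 Zfp genes in LIF by edgeR, with 6 (3.47%) at an unadjusted p under 0.05 with the larger effect in MNase, against 2.61% of all genes, and 0% of all genes called. Without WT replicate 1, 2 or 3 in LIF the MNase fit called 20, 28 or 24 genes higher, and without KI replicate 3 it called 17. Without KI replicate 1 in both media it called 62 higher and 9 lower, and with every library thinned to 2127850 counts 30 higher and 3 lower. KI replicate 2 was the lowest of the 3 KI libraries in LIF for 29 of the 44 genes that rose.

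Zfp941 had the largest rise in LIF. Its footprints were 5.48, 5.70 and 8.26 CPM in the WT libraries, against 24.0, 24.6 and 22.8 CPM in those of KI, a log2 fold change of 1.83 (SE 0.28, adjusted p = 0.0022, edgeR). The KI libraries lay close together and far above every WT library. With RNase I they were 4.50 and 6.39 CPM in the WT libraries, against 15.6 and 18.9 CPM in those of KI, also apart, with a log2 fold change of 1.66 (SE 0.44, adjusted p = 0.226).

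Zfp266 was at 44.3, 41.8 and 46.9 CPM in the WT libraries, against 94.2, 101 and 116 CPM in those of KI in LIF (log2 1.22, SE 0.16, adjusted p = 0.00117, edgeR). Its RNase I values were 52.2 and 56.1 CPM in the WT libraries, against 83.4 and 96.7 CPM in those of KI. With both nucleases the KI libraries were above the WT libraries, and in LIF/2i the MNase log2 fold change was 0.91 (SE 0.16) and the RNase I value 0.40 (SE 0.19). Zfp39, a gene called in LIF and not in LIF/2i, changed by 1.24 (SE 0.25) in LIF and had a value of 0.21 (SE 0.24) in LIF/2i, and its interaction with medium did not pass the test (adjusted p = 0.241).

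**Figure D4:**
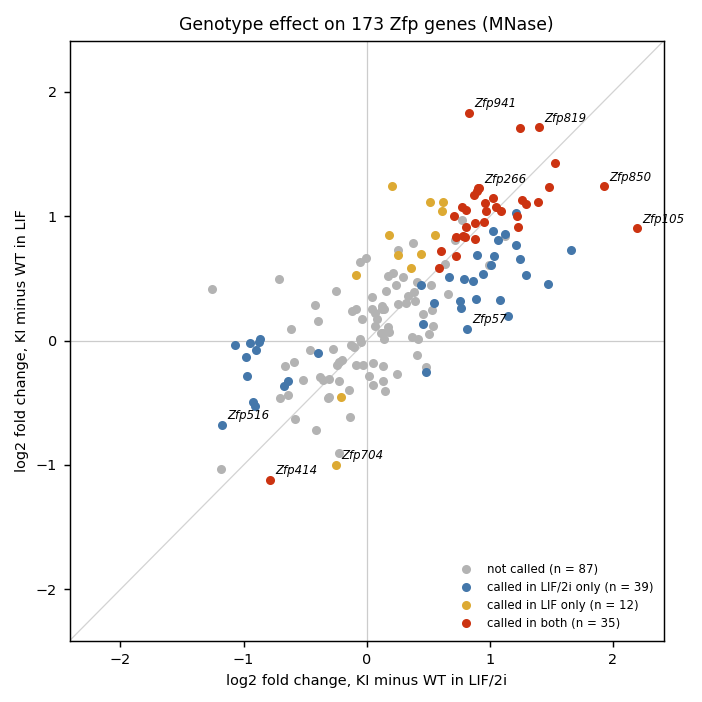
Log2 fold change of KI over WT for the 173 Zfp genes in LIF/2i (x axis) and LIF (y axis) in the MNase libraries, coloured by the comparisons in which a gene was called, with the diagonal in grey. The 35 red points called in both media are 34 genes higher in KI and Zfp414, lower in KI.

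The same direction held across media for the genes called in both. Of the 173 genes, 34 were higher in KI in both media, 1 was lower in both and 0 were called in opposite directions, while 26 were higher in LIF/2i only and 10 in LIF only. The 34 are 19.7% of the Zfp genes, where 6.91% of genes at 10 CPM or more and 5.15% of all genes tested were higher in both media. Lower in both were 0.578% of the Zfp genes, against 3.57% and 3.06%. The 2 sets of fold changes come from different libraries and had r = 0.756 (Spearman rho 0.793, n = 173 genes), with 107 genes above 0 in both and 42 below 0 in both, but deviations of KI libraries from their group means are correlated across media. All 34 genes were above 0 with RNase I in LIF, and 14 of 34 in LIF/2i. Zfp414, the gene lower in both, was at 30.1, 42.8 and 33.2 CPM in the WT libraries, against 26.6, 17.2 and 18.1 CPM in those of KI in LIF/2i. In LIF it was at 59.3, 48.0 and 56.3 CPM in the WT libraries, against 27.2, 29.2 and 18.9 CPM in those of KI (log2 -1.12, SE 0.22, adjusted p = 0.00689, edgeR). Zfp414 had all KI libraries below all WT libraries in both media.

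The interaction of genotype and medium called 0 Zfp genes in either direction by edgeR, with 21 (12.1%, against 12.2% of all genes tested) at an unadjusted p under 0.05, and 1 higher and 1 lower by DESeq2. It called 0.102% of all genes higher and 0.234% lower, and 0.11% and 0.309% of genes at 10 CPM or more. The smallest p was that of Zfp335 (log2 0.86, SE 0.21, adjusted p = 0.115), followed by Zfp57 (log2 -0.72, SE 0.19, adjusted p = 0.146). Calls in 1 medium alone are therefore not shown to differ from the other medium.

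Genes that lie next to another zinc finger gene were compared with the rest, a split chosen after values were seen and given as a description. By RefSeq order, 81 of the 173 had an adjacent protein-coding gene named Zfp, Zkscan or Zscan, and 92 had not. In LIF/2i, 35 of the 81 (43.2%) were higher in KI and 6 lower with a median log2 of 0.53, against 25 of the 92 (27.2%) and 8 lower with a median of 0.12. In LIF, 29 of the 81 (35.8%) were higher and 0 lower with a median of 0.61, against 15 (16.3%) and 3 with a median of 0.17. With RNase I in LIF the medians were 0.31 and 0.06, with 60 of 81 and 51 of 92 above 0, and in LIF/2i they were -0.06 and -0.02. Of the 34 genes higher in both media, 23 lay next to a zinc finger gene. The sources used here do not give how the counting treated reads that fit several close copies, and values of such neighbours may share reads.

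Among the 173 genes, 31 pairs were neighbours of each other. Both members were called in 7 pairs in LIF/2i and 6 in LIF, each time in the same direction. That is 22.6% and 19.4% of the pairs, against 8.79% and 3.34% of 4825 adjacent pairs of genes at 10 CPM or more. Single Zfp genes were also called more often than other genes, which by itself raises the share of pairs with both called. That share is therefore not read as an effect of position, and Zfp87 is counted with Zfp58 and again with Zfp748. Among the pairs of genes at 10 CPM or more with both called, 67.2% and 73.3% had the same direction. Most called Zfp genes were higher (60 of 74 and 44 of 47), so the shared direction of the Zfp pairs is not read as a result. The pairs higher in both media were Zfp101 with Zfp81, Zfp58 with Zfp87, Zfp60 with Zfp626, Zfp719 with Zfp819 and Zfp748 with Zfp87. In LIF the call was lost in 12 of 21 other settings for Zfp58, in 6 for Zfp626 and in 5 for Zfp60. Zfp24 and Zfp35 were higher and Zfp236 and Zfp516 lower in LIF/2i, and Zfp763 and Zfp952 were higher in LIF.

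Zfp719, whose promoter is printed above, was at 11.7, 11.7 and 7.62 CPM in the WT libraries, against 23.5, 35.7 and 26.8 CPM in those of KI in LIF/2i. In LIF the values were 7.30, 11.9 and 8.62 CPM in the WT libraries, against 20.6, 18.2 and 27.4 CPM in those of KI. The log2 fold changes were 1.48 (SE 0.26) and 1.24 (SE 0.27). Its neighbour Zfp819, described as a repressor of endogenous retroviruses, was at 20.9, 12.3 and 10.1 CPM in the WT libraries, against 25.3, 47.9 and 39.2 CPM in those of KI in LIF/2i. In LIF the values were 7.30, 4.61 and 7.39 CPM in the WT libraries, against 14.9, 17.1 and 31.2 CPM in those of KI. KI lay above WT in both media for both genes, though WT replicate 1 and KI replicate 1 of Zfp819 were close in LIF/2i.

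Zfp81 was at 14.9, 17.3 and 15.7 CPM in the WT libraries, against 22.1, 37.3 and 29.9 CPM in those of KI in LIF/2i. In LIF the values were 9.13, 9.22 and 10.0 CPM in the WT libraries, against 20.3, 21.0 and 24.5 CPM in those of KI. Its RNase I values in LIF were 6.98 and 7.87 CPM in the WT libraries, against 17.4 and 16.0 CPM in those of KI, a log2 fold change of 1.17 (SE 0.28, adjusted p = 0.184, edgeR). KI lay above WT in these 3 comparisons. In LIF/2i its RNase I value was -0.22 (SE 0.25). The neighbour Zfp101 changed by 1.25 (SE 0.29) in LIF/2i and 1.71 (SE 0.31) in LIF with MNase, and its RNase I values were -0.11 (SE 0.35) and 0.87 (SE 0.38).

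The lists of Zfp genes by function below were chosen with earlier results of these data known, so their counts are a description and no test. For scale, 17.3% of genes at 10 CPM or more were higher and 11.4% lower in KI in LIF/2i, with a median of 0.04. In LIF the shares were 9.5% and 6.68%, with a median of 0.01. Of 10 names listed for imprint maintenance and retroelement silencing, 6 were among the 173 genes. Of these 6, 5 rose in KI in LIF/2i and 1 in LIF, and 0 fell, with medians of 0.65 and 0.30. Of the 5 genes, Zfp568 had an adjusted p of 0.0474 by edgeR and lost its call in 16 of 21 other settings. Zfp57, which keeps DNA methylation at imprinting control regions, was at 361, 352 and 304 CPM in the WT libraries, against 616, 613 and 561 CPM in those of KI in LIF/2i (log2 0.82, SE 0.14, adjusted p = 0.00166, edgeR). The groups were well apart in LIF/2i. In LIF it was at 463, 439 and 426 CPM in the WT libraries, against 576, 392 and 448 CPM in those of KI, which overlap, and the value was 0.09 (SE 0.14). With RNase I in LIF/2i it was at 293 and 275 CPM in the WT libraries, against 396 and 359 CPM in those of KI, also apart (log2 0.41, SE 0.17, adjusted p = 0.355).

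Zfp445, which acts with Zfp57 at imprints, was at 30.5, 39.6 and 30.5 CPM in the WT libraries, against 52.1, 125 and 102 CPM in those of KI in LIF/2i (log2 1.47, SE 0.27, adjusted p = 0.00281, edgeR). KI replicate 1 was nearer to WT than to the other KI libraries. In LIF the values were 56.6, 65.9 and 54.5 CPM in the WT libraries, against 81.5, 64.0 and 97.1 CPM in those of KI, which overlap (log2 0.46, SE 0.26). Zfp568, a KRAB repressor needed in gastrulation, and Zfp961 had values of 0.48 (SE 0.16) and 0.46 (SE 0.14) in LIF/2i and passed the test there. The call of Zfp961 was lost in 7 of 21 other settings and its sign turned in 1. Zfp809, a silencer of retroviruses that use a proline primer, had 0.22 (SE 0.21) and 0.55 (SE 0.21) and passed in neither medium. For Zfp961 the RNase I value in LIF/2i was -0.31.

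In the list of 10 RNA and ribosome genes, 1 rose and 1 fell in KI in LIF/2i, and 1 rose and 0 fell in LIF, with medians of 0.03 and -0.13. In each medium the share that rose was near or below that of other genes. Zfp638, an RNA-binding protein also known to silence retroviral DNA, was at 256, 223 and 207 CPM in the WT libraries, against 385, 383 and 355 CPM in those of KI in LIF/2i. In LIF the values were 195, 192 and 204 CPM in the WT libraries, against 475, 311 and 396 CPM in those of KI (log2 0.71, SE 0.14, and 1.00, SE 0.14). KI lay above WT in all MNase libraries of both media. With RNase I it was at 257 and 234 CPM in the WT libraries, against 495 and 319 CPM in those of KI in LIF, where KI was also above WT. Zfp106, an RNA-binding protein needed in motor neurons, was at 526, 552 and 519 CPM in the WT libraries, against 370, 433 and 408 CPM in those of KI in LIF/2i and passed there as a fall (log2 -0.40, SE 0.13), with -0.10 (SE 0.13) in LIF. Its call in LIF/2i was lost in 9 of 21 other settings.

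Zfp598, the ubiquitin ligase that marks collided ribosomes, had log2 values of -0.03 (SE 0.10) in LIF/2i and -0.19 (SE 0.10) in LIF and passed in neither. Zfp207 had 0.25 (SE 0.16) and -0.27 (SE 0.16). The other 6 of the list, Zfp36, Zfp326, Zfp622, Zfp593, Zfp346 and Zfp830, also did not pass in either medium, with values of -0.63 to 0.41.

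Of 14 chromatin cofactors and broadly expressed factors, 2 rose and 0 fell in KI in LIF/2i, and 1 rose and 0 fell in LIF. The shares called higher were near those of other genes, and the medians were -0.11 and 0.04. Zfp644, a partner of the H3K9 methyltransferase G9a, was at 50.0, 43.1 and 44.3 CPM in the WT libraries, against 84.7, 145 and 106 CPM in those of KI in LIF/2i (log2 1.29, SE 0.23, adjusted p = 0.00214, edgeR), and had 0.52 (SE 0.22) in LIF. Zfp131, called in both media, was at 33.3, 25.8 and 26.8 CPM in the WT libraries, against 48.3, 88.1 and 64.1 CPM in those of KI in LIF/2i. Both genes had KI above WT in every library there. The other 12 of the list, Zfp91, Zfp143, Zfp148, Zfp217, Zfp219, Zfp384, Zfp462, Zfp532, Zfp592, Zfp609, Zfp687 and Zfp827, had log2 fold changes of -0.71 to 0.49 for KI against WT over both media and passed in neither medium. The RNase I values in LIF/2i were 0.30 for Zfp644 and -0.21 for Zfp131. Of 6 genes tied to stem cells or development, 1 rose and 0 fell in LIF/2i, and 0 rose and 2 fell in LIF, with medians of -0.04 and -0.35. The gene that rose was Zfp568, counted in the imprint and retroelement list too. Those that fell were Zfp704 (log2 -0.998, SE 0.28) and Zfp710 (log2 -0.46, SE 0.13), whose calls were lost in 7 and 10 of 21 other settings. Zfp703, at a mean of 10.1 CPM, had -1.18 (SE 0.50) and -1.03 (SE 0.54) and did not pass.

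Between the media, the MNase fit called 27 Zfp genes in WT and 25 in KI, against 74 and 47 between the genotypes. This order did not hold throughout the other fits. With both nucleases in 1 fit, 21 were higher and 35 lower by medium in WT, against 30 and 20 by genotype in LIF/2i. In that fit the order held for the medium in KI, with 17 higher and 17 lower, against 46 and 4 by genotype in LIF. The RNase I fit called Zfp genes by medium and 0 by genotype. In WT with MNase, 10 were higher and 17 lower in LIF than in LIF/2i (5.78% and 9.83%), where all genes tested had 9.99% and 11% and genes at 10 CPM or more 9.27% and 12.3%. The median log2 fold change was -0.15, and for 51 genes (29.5%, against 21.2% of all genes tested) every LIF library was below every LIF/2i library, while for 28 (16.2%, against 21.4%) every one was above. Without KI replicate 1 in both media the same fit called 20 higher and 32 lower, and DESeq2 called 16 and 20. Leaving out WT LIF replicate 2 left 4 higher and 11 lower, leaving out WT LIF replicate 1 left 5 higher and WT LIF/2i replicate 1 left 10 lower.

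In KI, 7 were higher and 18 lower in LIF (4.05% and 10.4%, against 8.37% and 10.3% of all genes tested and 6.66% and 11.7% of genes at 10 CPM or more), with a median of -0.04. Scaled by library totals alone, 11 were higher and 14 lower and the median was 0.06, but that scaling moved all genes alike, their median going from -0.003 to 0.10, so the Zfp median stayed below that of all genes. For 14 genes (8.09%, against 17.1%) every LIF library was above every LIF/2i library and for 26 (15%, against 17.8%) every one was below. Fitted on the 6 KI libraries alone with the replicate number as a block, 19 Zfp genes (11%) were higher and 26 (15%) lower, against 14.8% and 14.5% of all 12257 genes tested there. Without the block the counts were 4 (2.31%) and 7 (4.05%), against 6.54% and 7.37%. The block raised the calls of all genes as well. Without KI LIF/2i replicate 2 or 3 the fit called 3 higher and 6 or 8 lower, without KI LIF replicate 2 it called 4 and 8, without KI LIF replicate 3 it called 3 higher, without KI LIF replicate 1 11 higher and without KI LIF/2i replicate 1 30 lower.

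**Figure D5:**
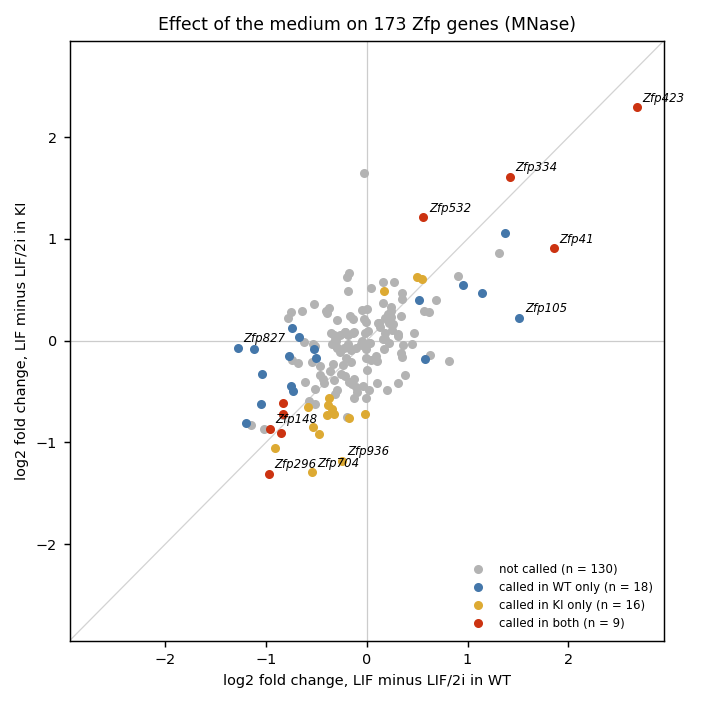
Log2 fold change of LIF over LIF/2i for the 173 Zfp genes in WT (x axis) and KI (y axis) in the MNase libraries, coloured by the genotype in which a gene was called, with the diagonal in grey. Of the 9 red points called in both genotypes, 4 were higher in LIF, with Zfp423 the farthest, and 5 were lower, with Zfp296 the lowest in both.

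In both genotypes 4 genes were higher in LIF, Zfp423, Zfp41, Zfp334 and Zfp532, and 5 were lower, Zfp296, Zfp148, Zfp292, Zfp654 and Zfp951. These are 2.31% and 2.89% of the Zfp genes, against 3.51% and 6.69% of genes at 10 CPM or more. None was called in opposite directions (0 genes by edgeR). The RNase I libraries gave the same sign for all 27 genes called in WT, 9 of them passing there too, and for 22 of the 25 called in KI, 1 of them passing, which was Zfp296. That fit called 3 Zfp genes higher and 12 lower in WT, beside 7.17% and 6.47% of all genes tested and 5.77% and 6.94% of genes at 10 CPM or more. In KI it called 1 higher and 1 lower, beside 1.41% and 2.04% of all genes and 1.3% and 2.49% of genes at 10 CPM or more. The 9 genes that passed with both nucleases in WT were Zfp143, Zfp148, Zfp267, Zfp292, Zfp296, Zfp41, Zfp423, Zfp428 and Zfp654. Over the 4 comparisons of 2 groups, 9 genes were called in 3 or more, Zfp105, Zfp131, Zfp26, Zfp266, Zfp267, Zfp292, Zfp41, Zfp654 and Zfp81, and 67 in none. These are 5.2% and 38.7%, against 5.38% and 49.9% of genes at 10 CPM or more. The call of Zfp105 for KI over WT in LIF was lost in 11 of 21 other settings. Zfp654 was called in all 4, higher in KI in both media (log2 0.72, SE 0.17, and 0.83, SE 0.17) and lower in LIF in both genotypes (log2 -0.83, SE 0.17, and -0.72, SE 0.16), comparisons that share libraries.

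Zfp423, a factor of neural and fat cell differentiation, was at 8.86, 4.40 and 6.39 CPM with the inhibitors and 40.6, 41.8 and 42.4 CPM without them in WT (log2 2.68, SE 0.44, adjusted p = 0.00114, edgeR). In KI it was at 24.3, 7.68 and 7.06 CPM with the inhibitors and 56.8, 51.7 and 81.6 CPM without them (log2 2.29, SE 0.39, adjusted p = 0.00146). The media were apart in both genotypes, and KI replicate 1 in LIF/2i stood above the other LIF/2i libraries. With RNase I it was at 4.75 and 3.00 CPM with the inhibitors and 28.8 and 32.2 CPM without them in WT (log2 2.93, SE 0.39, adjusted p = 0.00318).

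Zfp296, a gene of pluripotent cells, was at 161, 163 and 165 CPM with the inhibitors and 100, 67.8 and 81.8 CPM without them in WT (log2 -0.97, SE 0.16, adjusted p = 0.00116, edgeR). In KI it was at 147, 215 and 172 CPM with the inhibitors and 70.8, 71.4 and 73.3 CPM without them (log2 -1.31, SE 0.16, adjusted p = 0.000143). LIF lay below LIF/2i in every library. The RNase I values were -0.86 (SE 0.22, adjusted p = 0.0341) in WT and -1.13 (SE 0.22, adjusted p = 0.0335) in KI, from 235 and 244 CPM to 154 and 110 CPM in WT and from 209 and 274 CPM to 95.1 and 125 CPM in KI.

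Zfp41 was at 3.19, 5.28 and 3.44 CPM with the inhibitors and 12.8, 16.3 and 14.2 CPM without them in WT, and at 11.6, 7.55 and 7.48 CPM and 18.2, 16.1 and 15.7 CPM in KI. The media were apart in both genotypes, with log2 fold changes of 1.86 (SE 0.28) and 0.91 (SE 0.24). Zfp532, of a chromatin complex with Zfp592 and Zfp687, changed by 0.56 (SE 0.18) in WT and 1.21 (SE 0.18) in KI. Zfp462, a chromatin factor that restrains differentiation, rose in WT by 0.52 (SE 0.15) and had 0.40 (SE 0.15) in KI. Zfp148, a factor that binds GC-rich promoters, changed by -0.96 (SE 0.23) and -0.87 (SE 0.22). In the chromatin list 2 rose and 4 fell in WT and 2 rose and 3 fell in KI, and in the development list 1 rose and 1 fell in WT and 1 rose and 2 fell in KI.

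Summed levels of markers of other cell types differed between media and between genotypes in some of the lists. The 8 primitive endoderm markers summed to 77.8 to 239 CPM in WT in LIF/2i, 340 to 537 in WT in LIF, 55.5 to 67.9 in KI in LIF/2i and 97.5 to 114 in KI in LIF. The 6 trophoblast markers summed to 14.5 to 36.8, 121 to 288, 13.3 to 41.4 and 61.6 to 82.8 CPM in the same order, and the 7 fibroblast and feeder markers to 3.50 to 6.39, 53.5 to 685, 9.20 to 12.7 and 84.4 to 121 CPM, with Lum and Dcn at 0 in both LIF/2i groups. The 5 neuroectoderm markers summed to 50.3 to 79.2, 72.8 to 93.1, 50.0 to 119 and 125 to 129 CPM, with Neurog2 at 0 in every group. Their sum in LIF was higher in KI than in WT. By single marker, 2 of 8 primitive endoderm markers were lower in KI in LIF/2i and 6 in LIF, and 0 were higher. Of 4 tested trophoblast markers, 1 was higher in KI in LIF/2i and 2 were lower in LIF. Of 4 tested fibroblast and feeder markers, 0 were called in LIF/2i and 1 was lower in KI in LIF. Of 4 tested neuroectoderm markers, 0 were called by genotype in either medium. The stem cell markers given above were lowest in KI in LIF. The part of these markers in the Zfp values was not tested.

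Other genes of the pathway were read from a list of 30 KRAB and heterochromatin partners. With MNase, 5 were higher and 0 lower in KI in LIF/2i and 3 higher and 0 lower in LIF, with medians of 0.18 and 0.18. The shares called higher were near those of genes at 10 CPM or more. From LIF/2i to LIF, 6 were higher and 2 lower in WT and 5 and 5 in KI. Trim28, the corepressor that KRAB domains bind, was at 2390 ± 300 CPM in the WT libraries of LIF/2i, against 2874 ± 550 CPM in those of KI (SD, n = 3), with a log2 value of 0.27 (SE 0.20), and -0.21 (SE 0.20) in LIF. Setdb1, the H3K9 methyltransferase it recruits, had 0.07 (SE 0.22) and 0.10 (SE 0.22). Atrx, a chromatin remodeller of heterochromatin, rose in KI in LIF/2i from 366 ± 50.5 to 684 ± 152 CPM (SD, n = 3, log2 0.90, SE 0.19), and Chd4, of the NuRD complex, by 0.52 (SE 0.12). Suv39h1, another H3K9 methyltransferase, rose from LIF/2i to LIF by 0.73 (SE 0.20) in WT and 1.19 (SE 0.19) in KI, and Hdac2, a histone deacetylase, fell by 0.61 (SE 0.14) and fell by 0.70 (SE 0.14) on the log2 scale.

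A list of 15 genes of ribosome collision and rescue was read in the same way. With MNase, 6 were higher and 1 lower in KI in LIF/2i, and 5 higher and 0 lower in LIF, with medians of 0.22 and 0.25. Genes at 10 CPM or more had 17.3% and 11.4%, and 9.5% and 6.68%. Nemf, which tags stalled peptides, rose from 101 ± 8.16 to 188 ± 23.9 CPM in LIF/2i and from 86.6 ± 7.46 to 166 ± 13.0 CPM in LIF (SD, n = 3, log2 0.90 and 0.94, SE 0.13 each). Abce1, the ribosome recycling factor, rose by 0.90 (SE 0.15) and 0.74 (SE 0.14), and Ascc3, the helicase of the complex that splits collided ribosomes, by 0.78 (SE 0.13) and 0.61 (SE 0.13). Gigyf2, the 1 gene that fell in LIF/2i, changed by -0.42 (SE 0.13) there and had -0.34 (SE 0.13) in LIF, where it did not pass. These are MNase levels of other genes and are given beside Zfp598, which did not pass. RNase I values of this list are not given here.

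Other zinc finger families are given for the same comparisons as counts. Over all genes tested, 13.8% were higher and 11.5% lower in KI in LIF/2i, and 7.36% and 6.05% in LIF. Of 26 Zbtb genes at 10 CPM or more, 2 were higher and 3 lower in KI in LIF/2i and 3 and 2 in LIF, with medians of -0.12 and 0.09. Of 13 Zscan and Zkscan genes, 3 and 1 were higher and 0 lower, with medians of 0.42 and 0.23. Of 137 tested Zfp genes under 10 CPM, 29 (21.2%) were higher and 2 (1.46%) lower in LIF/2i, with a median of 0.60. In LIF, 6 (4.38%) were higher and 0 lower, with a median of 0.50 and 109 of 137 above 0. The share called higher there was below that of all genes tested, but most of those were at 10 CPM or more. A share for other genes under 10 CPM is not given, so the low share is not read as a lack of a rise.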

How the data were processed

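Ribosome footprints were counted in coding sequences of mouse embryonic stem cells in 20 libraries, 12 with MNase and 8 with RNase I. The deposited table holds raw counts per gene in 20 columns, 1 transcript per gene name. The tools named in the submitters' processing notes are Bowtie 1.3.0, cutadapt 3.4 and UMI-tools 1.0.1. Footprints of 25 to 40 nt had been cut from gels, per the labels' protocols. The genome build and the handling of reads that fit several places are not given in the sources used here. Gene names in the file are in capitals, and all 173 matched RefSeq symbols.

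The MNase libraries were fitted together in R 4.3.3 with edgeR 4.0.16 (filterByExpr, TMM, 4 group means, quasi-likelihood test, two-sided, BH over 12806 genes, threshold 0.05). RNase I libraries were fitted alone (12095 genes). Levels by library are CPM with TMM-adjusted totals, and levels that chose genes are CPM of raw totals. Alternatives included DESeq2 1.42.0, library totals, thinning to 2127850 counts and leaving out each library. The fits on KI libraries alone, the nuclease difference and the neighbour split were added after values were seen. Scripts were tested on simulated data.

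KI libraries of the same number deviated together across media (correlations 0.563, 0.315 and 0.393), and this, not the labels, led to their use as pairs. Only replicate 1 correlated best with its own number, since replicates 2 and 3 reached 0.367 and 0.404 with a library of another number. The genes and lists were chosen with earlier results of these data known. Named were the 8 largest rises and falls per comparison with no overlap, the function lists, the highest levels, genes called with both nucleases, called neighbours and genes called in 3 or more comparisons. Genes called in both genotypes or lower in KI in both media, and falls shared by 2 comparisons, were named after their values were seen. Promoter windows and neighbour order are from RefSeq (GRCm38.p6).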

Additional observations from a re-analysis of the deposited data

How the results depend on the processing

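Counts below are Zfp genes higher and lower, each against the value of the MNase fit. With RNase I alone, KI over WT gave 0 and 0 in LIF/2i (median -0.029) and 0 and 0 in LIF (median 0.21), LIF over LIF/2i gave 3 higher in WT and 1 and 1 in KI (median 0.11), and the interaction had a median of 0.22. There 14 named genes of KI over WT in LIF/2i turned negative, Zfp58 to -0.36, Zfp60 to -0.45, Zfp87 to -0.30, Zfp35 to -0.30, Zfp101 to -0.11, Zfp748 to -0.015, Zfp936 to -0.22, Zfp719 to -0.18, Zfp131 to -0.21, Zfp26 to -0.13, Zfp267 to -0.22, Zfp654 to -0.20, Zfp81 to -0.22 and Zfp961 to -0.31, and Zfp131 and Zfp26 turned to 0.060 and 0.20 in LIF over LIF/2i in KI. The cause was not tested. With both nucleases in 1 fit, 30 were higher in KI in LIF/2i (median 0.16), 21 higher and 35 lower in LIF in WT, 17 higher in LIF in KI, and the interaction median was 0.15. Library totals alone shifted the median of all genes in LIF/2i from 0.01 to -0.10 and of the Zfp genes to 0.21. In LIF over LIF/2i in KI, that scaling gave 11 higher and a median of 0.063, where all genes moved to 0.10. DESeq2 gave 16 higher in LIF in WT and 1 and 1 for the interaction. Without KI replicate 1 in both media, 9 were lower in KI in LIF, 20 and 32 changed with the medium in WT, 12 and 37 in KI, and 3 and 4 had an interaction. Taking every tested Zfp name gave medians of 0.46 and 0.44 for KI over WT in LIF/2i and LIF, 16 higher in LIF in WT, and 12 and 29 in KI.

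Leaving out each library gave 28 to 65 higher and 7 to 16 lower in KI in LIF/2i, 17 to 51 and 1 to 4 in LIF, 4 to 15 and 10 to 22 for the medium in WT, 3 to 11 and 6 to 30 for the medium in KI, and 0 to 1 and 0 to 2 for the interaction. With the replicate block over all MNase libraries the counts were 60 and 16, 44 and 3, 14 and 17, and 7 and 20 in the 4 two-group comparisons, and no call of a named gene changed. On KI libraries alone the block gave 19 higher in LIF, against 4 higher and 7 lower with no block, and calls over all genes also rose. Outside KI, same-numbered libraries had correlations of -0.148 to 0.118 and share only a number. Of 109 results of named genes, 6 kept sign and call in every setting, 99 lost the call in at least 1 and 16 changed sign, all with RNase I alone. The 6 were all effects of the medium, those of Zfp292, Zfp41, Zfp423, Zfp654 and Zfp296 in WT and of Zfp296 in KI. No result of KI over WT kept its call in every setting, as RNase I alone called 0 Zfp genes by genotype. Sequences of proteins were not used here, so the planned split by KRAB domain and finger number, CPM per residue and the check of shared protein stretches were not run. Genotype and MNase depth go together, and thinned to equal totals 44 and 13 were called in KI in LIF/2i and 30 higher in LIF. Footprints near 10 CPM in WT rest on few counts per library.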
